A study of Mus musculus with 12 samples.

Results

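The genes described here are 10 members of the bone morphogenetic protein (BMP) and growth differentiation factor (GDF) system, taken by gene symbol from a mouse bead array. They are the ligands Bmp2, Bmp4, Bmp6, Bmp7, Gdf5 and Gdf10, the secreted antagonists Grem1, Nog and Chrdl1, and the membrane pseudoreceptor Bambi. Together they held 15 of the 46632 probes, and 10 of the 34509 symbols, in the deposited table. The study looked for a proteinase that retinoic acid, but not interleukin-1α (IL-1α), induces in cartilage. The arrays measured RNA from cartilage of the femoral head, taken from mice 21 days old, with 4 hips in each well. All groups, the controls included, carried the TS-4/5∆cat genotype, an in-frame deletion of exon 4 of Adamts4 and exon 3 of Adamts5 that removes the catalytic domain of both aggrecanases. Tissue was left untreated, or given 10 ng/mL IL-1α, or given 10 uM retinoic acid, for 3 days. Each treatment had 4 arrays, 2 from the line named Donut (batch 1) and 2 from the line named Gertrude (batch 2), so line and batch cannot be told apart. No group had intact Adamts4 or Adamts5. The labels describe 24 hours in serum before treatment, whereas the methods describe serum-free culture. The methods count 3 separate, unpooled mice per treatment without saying which arrays those are. With 4 hips per well in the labels, it is unclear whether an array is 1 animal or a pool. Each of the 12 arrays entered the analysis. The labels name replicates without tying them to animals, and the p-values measure the spread between arrays, which may be partly technical.

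BMPs and GDFs are secreted dimers of the transforming growth factor β family. They bind type I and type II serine/threonine kinase receptors, which phosphorylate SMAD proteins, and these move to the nucleus and switch on targets such as the Id genes. Antagonists of the noggin, gremlin and chordin families bind the ligands outside the cell and keep them from the receptors, whereas the BAMBI pseudoreceptor lacks a kinase domain and blocks signalling at the membrane. In cartilage the system is known for driving chondrocyte formation and hypertrophy and for shaping the joints, and retinoic acid is a classical inhibitor of the chondrocyte phenotype.

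The proximal promoters of the members that fell with a treatment give the sequence context of these genes. RefSeq promoters of GRCm38.p6 were at hand for 4 of the 10 members, and the 3 printed here belong to Bmp4, Gdf10 and Grem1, which all fell with retinoic acid. Each is the 250 bases before the annotated start, read 5′ to 3′ on the strand of the gene: Bmp4 at chr14:46390670-46390919 (minus strand), Gdf10 at chr14:33923337-33923586 (plus strand) and Grem1 at chr2:113758649-113758898 (minus strand). Capitals mark GGCGCC, a GC-rich element bound by BMP-activated SMAD proteins.
Bmp4: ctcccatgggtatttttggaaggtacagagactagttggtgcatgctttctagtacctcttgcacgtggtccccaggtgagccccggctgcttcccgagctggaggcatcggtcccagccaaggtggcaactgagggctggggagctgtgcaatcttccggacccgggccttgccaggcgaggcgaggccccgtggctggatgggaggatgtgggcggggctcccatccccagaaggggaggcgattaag
Gdf10: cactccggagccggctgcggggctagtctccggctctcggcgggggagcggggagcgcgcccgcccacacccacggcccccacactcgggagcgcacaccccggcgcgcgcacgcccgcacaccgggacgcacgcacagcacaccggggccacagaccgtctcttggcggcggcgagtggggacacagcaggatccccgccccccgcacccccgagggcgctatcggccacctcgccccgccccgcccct
Grem1: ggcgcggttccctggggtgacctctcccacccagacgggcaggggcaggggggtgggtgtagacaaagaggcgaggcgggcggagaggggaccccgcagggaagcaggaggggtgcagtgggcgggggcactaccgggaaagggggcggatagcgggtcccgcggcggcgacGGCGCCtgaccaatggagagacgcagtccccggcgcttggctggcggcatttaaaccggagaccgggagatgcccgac
The GC content of these windows was 63.2% for Bmp4, 78.8% for Gdf10 and 72% for Grem1. GGCGCC, which reads the same on both strands, occurred once, in Grem1, starting 78 bases upstream of the start. Across the table, 3149 of 32851 windows of this length held it, or 9.59%. The retinoic acid receptor motif was searched as a direct repeat of AGGTCA with a spacer of 2 or 5 bases, on both strands. Neither spacing occurred in these promoters or in that of Bmp6, and each occurred in 3 of all 32851 windows (0.00913%), so these windows are no test of receptor binding. None of the matches is a measured binding site.

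Values below are log2 intensities after background correction and quantile normalization of all 12 arrays together. An offset of 16 was added before log2, so the fold changes understate the change of dim probes. A probe was kept when it was detected above background (detection p under 0.05) on at least 4 arrays, which left 18200 probes for 14317 genes. Of the 15 member probes, 9 passed this filter. They represent 7 of the 10 genes, and a count over these 7 describes the kept genes and not the whole group, since a probe can be kept through the arrays of 1 treatment alone. Each gene is represented by its brightest kept probe. Differences and their standard errors (SE) come from 1 limma model with terms for treatment and for batch and replicate, and adjusted p-values are Benjamini-Hochberg values over all kept probes. A gene is called changed at an adjusted p under 0.05.

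Batch 2 had more detected probes per array (16732 to 19485) than batch 1 (13786 to 14965), so a dim transcript can be seen in 1 batch only. The tissue carried its cartilage markers before treatment, and their summed level was lower with each treatment. The summed linear level of 9 chondrocyte markers, 6 of which were detected on every array and 1 of which, Matn3, on none, was 62430 to 73960 per untreated array, 35270 to 47070 with IL-1α and 10060 to 15330 with retinoic acid. Of the 8 kept markers, 8 fell with retinoic acid and 6 with IL-1α, where 18.1% and 15% of all genes fell. Col2a1 (-0.20, limma adjusted p 0.468) and Comp (-0.29, adjusted p 0.0784) were not called with IL-1α. The summed level of the 5 osteoblast markers with a probe was 9592 to 11480 untreated, 2571 to 4834 with IL-1α and 2706 to 4217 with retinoic acid, with 4 detected on every array and Dmp1 on none. Of the 4 kept, 3 fell with each treatment, and Bglap1 was called with neither (limma adjusted p 0.885 with retinoic acid and 0.744 with IL-1α). These shifts accompany each member that fell, and their part in those falls was not tested. In RNA from whole explants, fewer cells of a type and less RNA per cell cannot be told apart.

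Retinoic acid changed each of the 7 kept genes against untreated cartilage, where 36.7% of all genes with a kept probe were called. Bmp7, Bmp2 and Gdf5 were higher, as were 18.6% of all genes, and Bmp4, Gdf10, Grem1 and Nog were lower, as were 18.1%. For 4 of the 7, the retinoic acid and untreated arrays did not overlap, against 18% of all genes. IL-1α changed 3 of the 7 against untreated, where the background was 30.2%. Gdf5 was higher (background 15.1%), and Gdf10 and Grem1 were lower (background 15%), the last 2 without overlap (background 14.3%). Between the treatments, 5 of the 7 differed (background 32.5%): Bmp7, Gdf10 and Grem1 stood higher under retinoic acid than under IL-1α (background 16.1%) and Bmp4 and Nog were lower (background 16.4%), 3 of them without overlap (background 18.9%). The median log2 difference of the 7 genes was -0.64 for retinoic acid against untreated, beside 0.01 over all genes. It was -0.08 for IL-1α against untreated, beside 0.01, and 0.41 for retinoic acid against IL-1α, beside -0.03. The 3 comparisons share arrays and are not independent of each other. The members were chosen with earlier results of these data known. The counts and medians set beside the background are therefore a description and no test of the group.

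**Figure D1:**
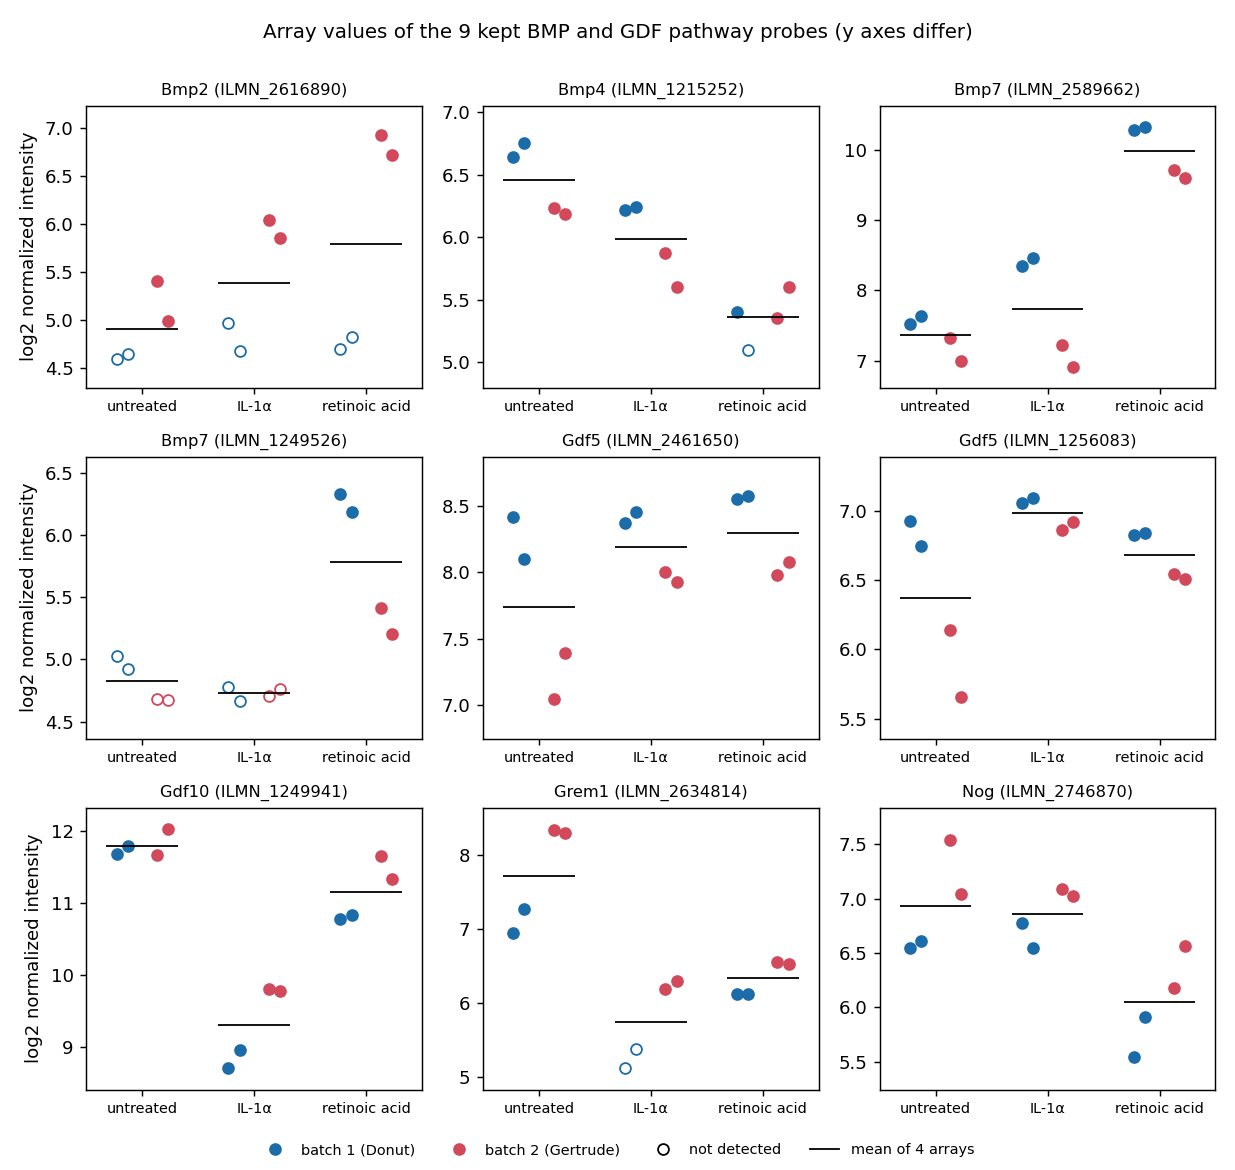
Log2 normalized intensity (y axis, a separate scale for each panel) of the 9 kept probes on each of 12 arrays, by treatment (x axis). Blue points are batch 1, red points batch 2, open points are arrays on which the probe was not detected, and lines are means of 4 arrays. The 4 retinoic acid arrays of Bmp7 lie above all 8 others, the 4 IL-1α arrays of Gdf10 lie below all 8 others, and Bmp2 was detected in batch 2 only.

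Among the kept ligands, Bmp7 rose most with retinoic acid. BMP-7, also called osteogenic protein, promotes matrix synthesis by chondrocytes. Its brighter probe (ILMN_2589662) was detected on all 12 arrays. On the untreated arrays it read 7.52 and 7.64 (batch 1) and 7.33 and 6.99 (batch 2). The corresponding values were 8.34, 8.46, 7.22 and 6.91 with IL-1α and 10.29, 10.33, 9.71 and 9.60 with retinoic acid. Every retinoic acid array stood above every other array, whereas the IL-1α arrays were above the untreated ones in batch 1 and overlapped them in batch 2. Retinoic acid raised Bmp7 by 2.61 on the log2 scale over untreated (SE 0.17, n = 4 arrays per treatment, limma adjusted p 1.04e-07), a 6.11-fold change, with 2.73 in batch 1 and 2.50 in batch 2. Over IL-1α the rise was 2.25 (SE 0.17, limma adjusted p 3.94e-07), or 4.74-fold, with 1.90 in batch 1 and 2.59 in batch 2. The exact two-sided permutation p for each was 0.0286, the smallest that 4 arrays against 4 can give. The difference of IL-1α from untreated was 0.37 (SE 0.17, adjusted p 0.122) and was called when the second IL-1α array of batch 2 was left out (adjusted p 0.0429) or in batch 1 alone (0.00104). This effect was 0.82 in batch 1 and -0.09 in batch 2, and the batches differed by -0.91 (adjusted p 0.0319).

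The other Bmp7 probe (ILMN_1249526) was detected on the 4 retinoic acid arrays and on none of the other 8. It read 6.33 and 6.18 (batch 1) and 5.41 and 5.21 (batch 2) with retinoic acid. Its level with retinoic acid was at least 1.58-fold higher than untreated and at least 1.44-fold higher than with IL-1α. These bounds set the retinoic acid mean against the lowest signal detected on each of the other arrays. The probe passed the filter through the retinoic acid arrays alone, so these values are a description and add no support to the brighter probe.

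Bmp4 moved the other way. BMP-4 is a strong inducer of chondrocyte differentiation and hypertrophy, and its probe (ILMN_1215252) was detected on 11 arrays. Untreated values were 6.64 and 6.75 (batch 1) and 6.24 and 6.19 (batch 2). With IL-1α they read 6.21, 6.24, 5.87 and 5.60, and with retinoic acid 5.40, 5.09, 5.35 and 5.60, the second of which was not detected. All retinoic acid arrays lay below all untreated ones, and the highest of them came level, to 2 decimals, with the lowest IL-1α array. Bmp4 fell by 1.09 on the log2 scale with retinoic acid against untreated (SE 0.17, limma adjusted p 0.000227), a 2.13-fold change, with -1.45 in batch 1 and -0.73 in batch 2. Its difference of IL-1α from untreated, -0.47 (SE 0.17), missed the threshold narrowly at an adjusted p of 0.0506, although the values within batches, -0.47 and -0.48, were alike. It was called when the second retinoic acid array of batch 1 (adjusted p 0.0246) or of batch 2 (0.0216) was left out, with normalization within batches (0.0167), with a detection p under 0.01 (0.0461), and within batch 1 (0.0322) and batch 2 (0.0462) alone. Against IL-1α, retinoic acid gave a fall of -0.62 (SE 0.17, adjusted p 0.0128), with -0.98 in batch 1 and -0.26 in batch 2. This call was lost without the second retinoic acid array of batch 1 (adjusted p 0.0576), without the second IL-1α array of batch 1 (0.0528) and with scaling to a common median in place of quantiles (0.179). A further Bmp4 probe (ILMN_1235698) was detected on 0 arrays.

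Bmp2 rose with retinoic acid, and the rise was seen in 1 batch. BMP-2 induces cartilage and bone and is the close relative of BMP-4. Its probe (ILMN_2616890) was detected on all 6 arrays of batch 2 and on none of batch 1. In batch 2 the values were 5.40 and 4.99 untreated, 6.04 and 5.85 with IL-1α, and 6.93 and 6.72 with retinoic acid. In batch 1, where it was not detected, it read 4.59 to 4.97. Within batch 2 the 3 treatments did not overlap and stood in the order untreated, IL-1α, retinoic acid. Over both batches the difference of retinoic acid from untreated was 0.88 (SE 0.24, adjusted p 0.0111), while within batches it was 0.14 and 1.62. The batches differed by 1.48 (adjusted p 0.00284), with values at background in batch 1. Leaving out either retinoic acid array of batch 2 (adjusted p 0.0517 and 0.0545) or its second untreated array (0.0598) ended the call. The exact two-sided permutation test of this difference, which ignores the batches, gave p 0.286. IL-1α differed from untreated by 0.47 (SE 0.24, adjusted p 0.155) and retinoic acid from IL-1α by 0.41 (SE 0.24, adjusted p 0.225), neither called.

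Gdf10 fell strongly with IL-1α. Its product, also named BMP-3b, belongs with BMP-3 to a divergent branch of the family that can oppose osteogenic BMPs. The probe (ILMN_1249941) was detected on all arrays and read 11.69 and 11.80 untreated (batch 1) and 11.66 and 12.03 (batch 2). With IL-1α the readings were 8.70 and 8.95, then 9.80 and 9.77, and with retinoic acid 10.78, 10.83, 11.65 and 11.34. The 3 treatments did not overlap, with untreated highest, retinoic acid between and IL-1α lowest. Gdf10 fell by 2.49 on the log2 scale with IL-1α (SE 0.17, limma adjusted p 5.20e-07), a 5.61-fold change, with -2.92 in batch 1 and -2.06 in batch 2, and the batches differed by 0.86 (adjusted p 0.0490). With retinoic acid it fell by 0.64 (SE 0.17, adjusted p 0.0112), with -0.94 in batch 1 and -0.35 in batch 2. That call was lost when either untreated array of batch 1 was left out (adjusted p 0.0562 and 0.0594). Retinoic acid stood 1.85 above IL-1α (SE 0.17, adjusted p 3.19e-06), or 3.59-fold, with 1.98 and 1.71 within batches. A further Gdf10 probe (ILMN_2503319) was detected on 1 array, treated with retinoic acid, at 5.04, and was not kept.

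Gdf5, a ligand needed for joint formation, rose modestly with each treatment. Its brighter probe (ILMN_2461650) read 8.41, 8.10, 7.04 and 7.39 untreated, 8.37, 8.46, 8.0 and 7.93 with IL-1α, and 8.56, 8.57, 7.98 and 8.08 with retinoic acid, batch 1 first. Untreated arrays of batch 2 were the lowest, and in both comparisons with untreated the arrays overlapped. The difference of retinoic acid from untreated was 0.56 (SE 0.15, adjusted p 0.00980), with 0.31 in batch 1 and 0.81 in batch 2. IL-1α gave 0.45 (SE 0.15, adjusted p 0.0352), with 0.16 and 0.75, and this call was lost without any 1 of the untreated and IL-1α arrays of batch 2 or without the second untreated or second IL-1α array of batch 1 (adjusted p 0.0692 to 0.129). For this probe exact two-sided permutation tests, which ignore the batches, gave p 0.171 for retinoic acid and 0.314 for IL-1α against untreated. No difference between the treatments was called (0.11, 95% confidence interval -0.21 to 0.43, adjusted p 0.640). The other Gdf5 probe (ILMN_1256083) was called for IL-1α (0.61, adjusted p 0.0139) and not for retinoic acid (0.31, adjusted p 0.164), so the retinoic acid call rests on the brighter probe. Bmp6, a ligand of hypertrophic chondrocytes, had 1 probe (ILMN_2705217), detected on 3 arrays of batch 2 only: 1 untreated array at 5.09 and both IL-1α arrays at 5.34 and 5.70. It was not kept and not tested.

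**Figure D2:**
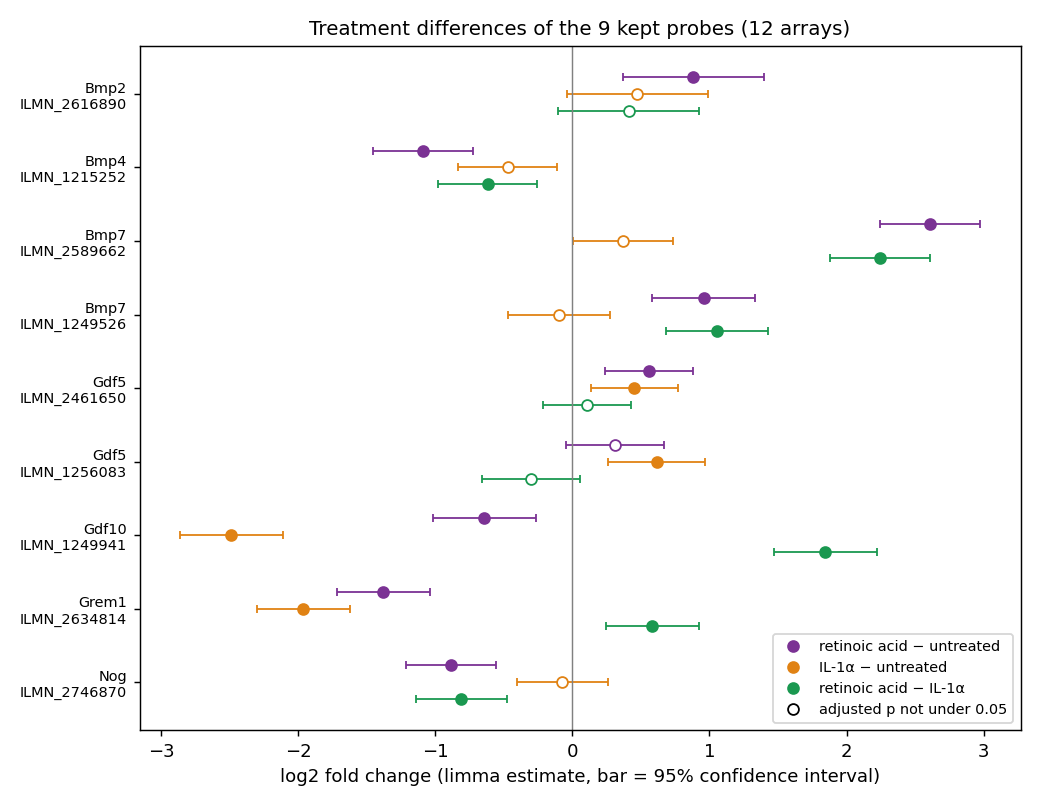
Log2 fold change (x axis) of the 9 kept probes for each comparison of 2 treatments, from the limma model over 12 arrays, with bars for the 95% confidence interval and open points where the adjusted p was not under 0.05. The intervals of Bmp7 for retinoic acid and of Gdf10 for IL-1α lie farthest from 0, at 2.61 and -2.49 for the brightest probe of each.

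Of the antagonists, Grem1 fell with both treatments. Gremlin-1 is a secreted protein that binds BMP-2, BMP-4 and BMP-7 and is known as a marker of articular cartilage and of skeletal stem cells. The probe (ILMN_2634814) read 6.95 and 7.26 untreated (batch 1) and 8.34 and 8.29 (batch 2). With IL-1α it read 5.13 and 5.37 in batch 1, where it was not detected, and 6.19 and 6.30 in batch 2. With retinoic acid the values were 6.12 on both arrays of batch 1 and 6.56 and 6.52 in batch 2. Every treated array lay below every untreated one, and IL-1α overlapped retinoic acid. Grem1 fell by 1.96 on the log2 scale with IL-1α (SE 0.16, limma adjusted p 1.80e-06), with -1.86 in batch 1 and -2.07 in batch 2. In batch 1 the untreated level was at least 3.13-fold higher than the undetected IL-1α level. Retinoic acid lowered it by -1.38 (SE 0.16, adjusted p 1.78e-05), a 2.60-fold change, with -0.99 in batch 1 and -1.78 in batch 2. Retinoic acid stood 0.58 above IL-1α (SE 0.16, adjusted p 0.0124), with 0.87 and 0.30 within batches, a call that was lost without the first retinoic acid array of batch 1 (adjusted p 0.0585). The exact two-sided permutation test of this last difference, which ignores the batches, gave p 0.171.

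Nog fell with retinoic acid, and no change with IL-1α was called. Noggin binds BMP-2 and BMP-4 tightly and BMP-7 less so, and limits cartilage growth in the embryo. The untreated arrays of its probe (ILMN_2746870) read 6.55, 6.61, 7.54 and 7.04, batch 1 first. The IL-1α arrays read 6.77, 6.55, 7.09 and 7.02, within the untreated range to 2 decimals, and the retinoic acid arrays read 5.54, 5.91, 6.18 and 6.56. Within each batch both retinoic acid arrays were the lowest, but over both batches the highest of them reached the lowest untreated array. Nog fell by 0.89 on the log2 scale against untreated (SE 0.15, limma adjusted p 0.000569), with -0.85 in batch 1 and -0.92 in batch 2. The exact two-sided permutation test, which ignores the batches, gave p 0.0571. Against IL-1α the difference was -0.81 (SE 0.15, adjusted p 0.00123), with -0.93 and -0.69. The difference of IL-1α from untreated was -0.08 (95% confidence interval -0.41 to 0.26, adjusted p 0.750). Leaving out any 1 array kept both retinoic acid calls (adjusted p up to 0.00362 and 0.00757).

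Chrdl1, a chordin-like antagonist, and Bambi were not detected on any array. The 2 Chrdl1 probes (ILMN_2661755 and ILMN_2726192) read 4.44 to 4.71 and 4.46 to 4.63, and the Bambi probe (ILMN_2774722) read 4.44 to 4.59. These values lie under the lowest detected signal of an array, which was 4.86 to 5.48, so they give a bound and no order between treatments.

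**Figure D3:**
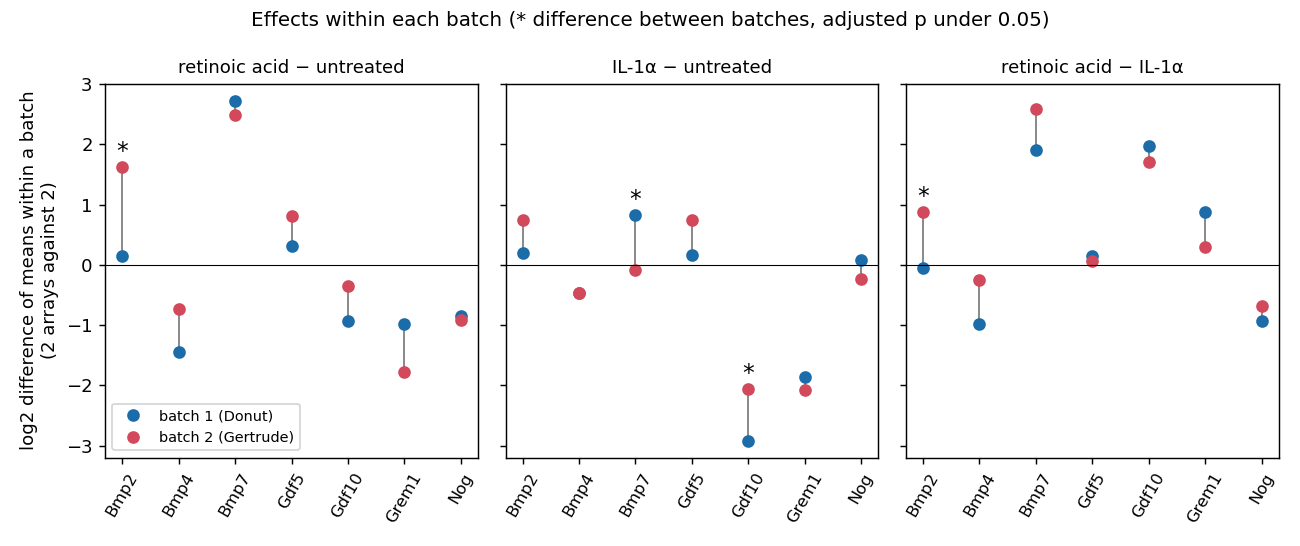
Log2 difference of means (y axis) within batch 1 (blue) and batch 2 (red), 2 arrays against 2, for the brightest kept probe of the 7 genes (x axis), 1 panel per comparison. Stars mark the 4 differences between batches with an adjusted p under 0.05: Bmp2 for retinoic acid against untreated and against IL-1α, and Bmp7 and Gdf10 for IL-1α against untreated.

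The effects on these genes were compared between the batches by a model of the 6 group means. For retinoic acid against untreated 1 of the 7 genes differed, Bmp2, where 2.7% of all genes did. For IL-1α against untreated 2 differed, Bmp7 and Gdf10 (background 4.57%), and for retinoic acid against IL-1α 1 differed, Bmp2 (background 8.91%). With retinoic acid against untreated, the differences of the 7 genes had the same sign in both batches. Bmp2 was not detected in batch 1, so its sign there carries no information. The genes called with IL-1α against untreated, Gdf5, Gdf10 and Grem1, also had the same sign in both. All these genes were called over both batches together, which makes a shared sign likely in advance, so it adds no support. The batches are also different lines of mice, and batch 2 detected more probes.

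A further 70 genes of the system were set out in 5 lists: other ligands, other extracellular antagonists and modulators, receptors and co-receptors, SMAD proteins and their inhibitors, and known targets. Of these, 63 had a probe and 40 a kept probe. Retinoic acid changed 19 of the 40 against untreated, 12 up and 7 down, IL-1α changed 16, 6 up and 10 down, and 21 differed between the treatments, 11 higher with retinoic acid and 10 lower. These counts stand beside the same background shares of 36.7%, 30.2% and 32.5%, and the median log2 differences of the 40 genes were -0.01, -0.07 and 0.02. The lists too were chosen with earlier results of these data known, so their counts are a description.

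Of the 15 other ligands, 14 had a probe and 7 a kept one. Of these 7, 3 fell and 1 rose with retinoic acid, and 2 fell and 1 rose with IL-1α. Over all genes 18.1% fell and 18.6% rose with retinoic acid, and 15% fell and 15.1% rose with IL-1α. Bmp3, which encodes the relative of GDF-10 that opposes osteogenic BMPs, read 8.95, 9.02, 9.67 and 9.50 untreated and 7.49, 7.17, 7.33 and 7.51 with retinoic acid. It fell by 1.91 with retinoic acid and by 0.60 with IL-1α on the log2 scale (limma adjusted p 2.59e-07 and 0.00596). Bmp3 was lower under retinoic acid than under IL-1α by -1.31 (adjusted p 8.74e-06), the reverse of the order of Gdf10. Bmp8a, a ligand of the BMP-7 group, fell by 2.52 with retinoic acid, where 1 of 4 arrays detected it, and by 1.81 with IL-1α (adjusted p 8.79e-08 and 4.16e-06). Gdf15, a divergent stress-induced ligand, rose by 3.80 with IL-1α (adjusted p 4.09e-07) and by 0.88 with retinoic acid (adjusted p 0.0168), the latter lost without either untreated array of batch 1 or the second retinoic acid array of batch 2 (adjusted p 0.0673 to 0.0821). Its IL-1α arrays read 11.93 and 11.83 (batch 1) and 10.29 and 10.50 (batch 2), and the untreated arrays 7.05 to 7.61. The IL-1α effect on Gdf15 differed between the batches, 4.54 against 3.06 (adjusted p 0.00458).

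Among the other antagonists and modulators 10 were kept, of which 5 rose and 1 fell with retinoic acid and 4 rose and 2 fell with IL-1α. The shares over all genes were 18.6% up and 18.1% down with retinoic acid, and 15.1% up and 15% down with IL-1α. Chrd, encoding the antagonist chordin, was the one of these 10 to fall with retinoic acid. It fell by 1.66 on the log2 scale (adjusted p 7.95e-06), and its difference with IL-1α was -0.45 (adjusted p 0.0698), called without the second retinoic acid array of batch 1 (0.0466) or the second untreated array of batch 2 (0.0375). Its arrays read 8.02, 8.21, 7.51 and 7.17 untreated and 6.64, 5.87, 5.87 and 5.87 with retinoic acid. Chrd thus fell with retinoic acid beside Grem1 and Nog. Nbl1, encoding an antagonist of the same family as gremlin, went the other way: it rose by 1.46 with retinoic acid and by 1.23 with IL-1α (adjusted p 3.44e-06 and 3.67e-05), and no difference between the treatments was called (0.23, adjusted p 0.238).

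Of 8 receptors and co-receptors kept, 2 were called with retinoic acid, both higher, and 1 with IL-1α, lower, beside 36.7% and 30.2% called over all genes. The type I receptor Bmpr1a differed by -0.07 with retinoic acid (SE 0.25, adjusted p 0.856) and by 0.29 with IL-1α (SE 0.25, adjusted p 0.405). Its IL-1α effect differed between the batches (adjusted p 0.0157), with 1.00 in batch 1 and -0.41 in batch 2. For the type II receptor Bmpr2 the values were -0.13 (SE 0.17, adjusted p 0.624) and 0.12 (SE 0.17, adjusted p 0.633). Acvr1, another type I receptor, differed between the treatments by -0.47 (adjusted p 0.00839), with neither treatment called against untreated. The probes of Bmpr1b, Acvr2a and Acvrl1 were not kept. Acvr2b, a type II receptor, rose by 0.60 with retinoic acid and fell by 0.61 with IL-1α, with an adjusted p of 0.000968 and 0.00134. Eng, the co-receptor endoglin, rose by 1.22 with retinoic acid (adjusted p 3.63e-06) and showed -0.11 with IL-1α (adjusted p 0.518). Among 5 kept SMAD proteins and inhibitors, 2 were called higher with retinoic acid (Smad1 and Skil) and 1, Tob1, with IL-1α. Over all genes 18.6% and 15.1% were higher. Skil (0.57, adjusted p 0.0165) was detected on 2 of 4 arrays of each treatment. Its effect was 0.13 in batch 1 and 1.00 in batch 2, and differed between them (adjusted p 0.0420). The call was lost without any 1 of the 4 untreated and retinoic acid arrays of batch 2 (adjusted p 0.0640 to 0.0769) or without the filter (0.0735). A dimmer Smad1 probe showed -0.0034 with retinoic acid (adjusted p 0.990), and dimmer probes of Smurf1 (0.91, adjusted p 0.0279) and of the co-receptor Tgfbr3 (0.64, adjusted p 0.0107) were called where the brightest was not. Tob1, a repressor of SMAD signalling, differed between retinoic acid and IL-1α by -1.26 (adjusted p 0.000568). It rose by 0.82 with IL-1α (adjusted p 0.0122), a call lost when any of the 4 untreated and IL-1α arrays of batch 1 was left out (adjusted p 0.0532 to 0.0638). That effect was 1.46 in batch 1 and 0.19 in batch 2, and differed between them (adjusted p 0.0239).

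The Id genes, direct targets of BMP-activated SMAD proteins that encode inhibitors of helix-loop-helix transcription factors, did not move as a group. Id3 read 9.55, 9.42, 9.45 and 9.33 untreated, 8.88, 8.84, 9.07 and 9.33 with IL-1α, and 10.92, 10.93, 10.99 and 11.02 with retinoic acid. The retinoic acid arrays stood above all others. Id3 rose by 1.53 with retinoic acid (SE 0.13, limma adjusted p 8.28e-07) and fell by 0.40 with IL-1α (SE 0.13, adjusted p 0.0280), the fall being lost without any 1 of the untreated and IL-1α arrays of batch 1 or the first IL-1α array of batch 2 (adjusted p 0.0566 to 0.109). Id1 differed by -0.05 with retinoic acid (SE 0.17, adjusted p 0.868) and by 0.21 with IL-1α (SE 0.17, adjusted p 0.395), the latter called without the first untreated array of batch 2 (adjusted p 0.0490). Id2 showed 0.39 with retinoic acid (adjusted p 0.131, or 0.0298 without the second retinoic acid array of batch 1) and -0.42 with IL-1α (adjusted p 0.117), and was 0.81 higher under retinoic acid than under IL-1α (adjusted p 0.00543). That last difference was 0.45 in batch 1 and 1.17 in batch 2. Id2 was detected on 2 untreated, 2 IL-1α and 3 retinoic acid arrays, and read 4.60 to 5.39 in batch 1, near background. Id4 fell by 1.67 with retinoic acid and by 1.37 with IL-1α (adjusted p 0.00391 and 0.0167), but was detected in batch 2 only, where it read 8.45 and 8.07 untreated, 5.99 and 6.05 with IL-1α and 5.18 and 5.51 with retinoic acid. Without the detection filter the calls of Id4 were lost (adjusted p 0.0621 with retinoic acid and 0.136 with IL-1α), as was that with IL-1α without either untreated array of batch 2 (0.0640 and 0.0821).

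Of the other targets, Tnfrsf11b, which encodes the osteoclast inhibitor osteoprotegerin, fell by 2.43 with retinoic acid and by 0.79 with IL-1α (adjusted p 3.65e-08 and 0.00102). Hey1, a transcriptional repressor, fell by 1.02 with IL-1α (adjusted p 0.000123), where 2 of 4 arrays detected it, and showed 0.37 with retinoic acid (adjusted p 0.0480), a call lost on leaving out any array (adjusted p 0.0537 to 0.179) other than the second untreated array of batch 1, the first of batch 2 and the IL-1α arrays of batch 2. In all, 2 of the 10 kept targets rose and 3 fell with retinoic acid, and 0 rose and 5 fell with IL-1α. Over all genes 18.6% rose and 18.1% fell with retinoic acid, and 15.1% rose and 15% fell with IL-1α.

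**Figure D4:**
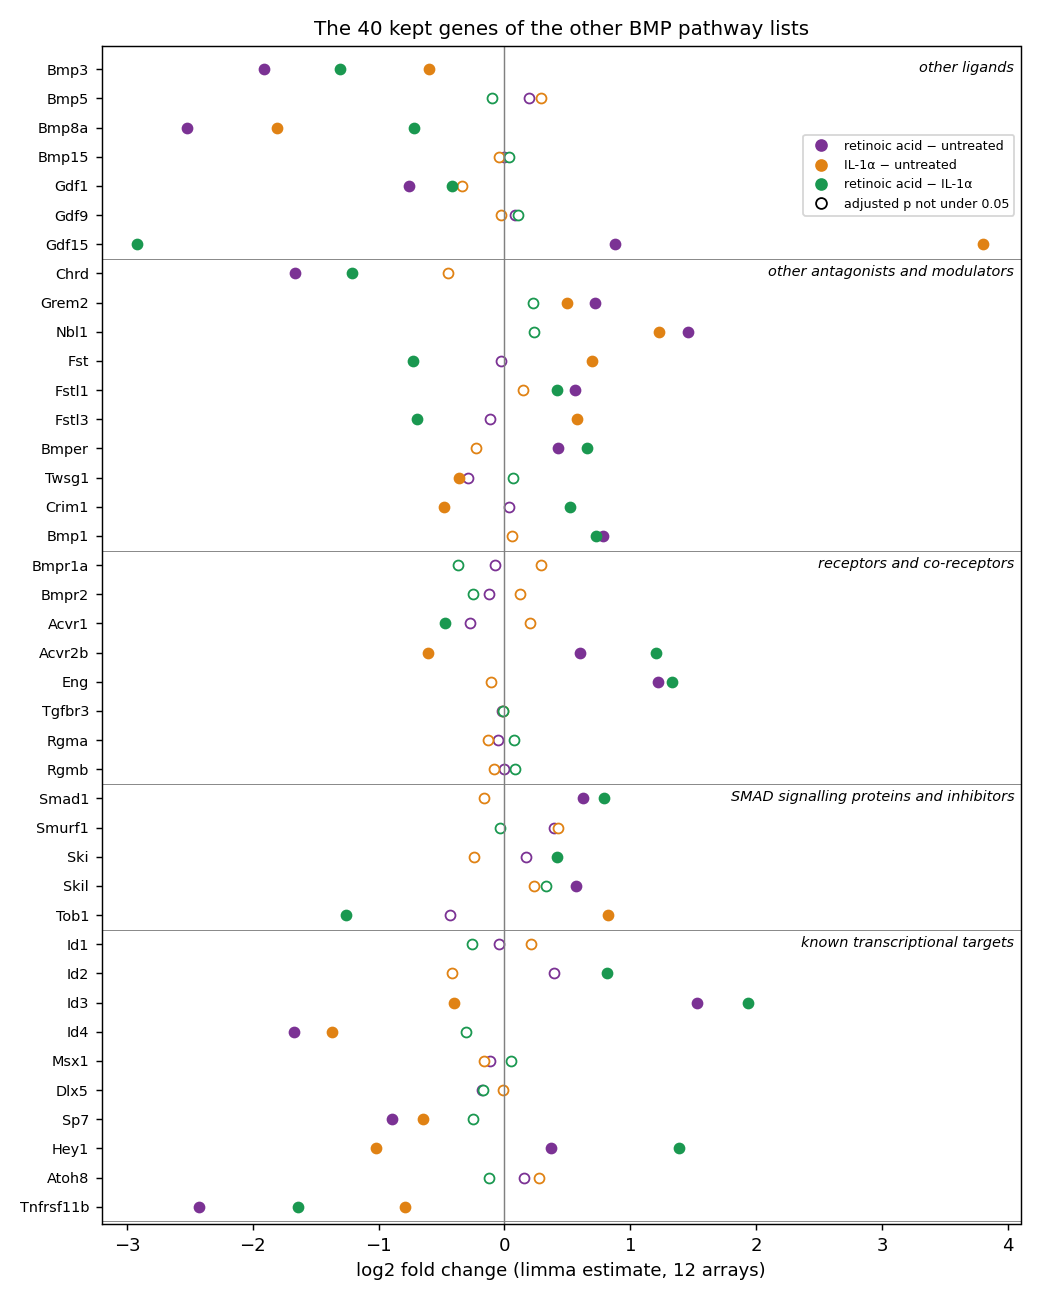
Log2 fold change (x axis) of the 40 kept genes of the 5 lists (y axis), from the limma model over 12 arrays, with 1 colour per comparison and open points where the adjusted p was not under 0.05. Gdf15 with IL-1α lies farthest to the right at 3.80, and Bmp8a and Tnfrsf11b lie far to the left with retinoic acid at -2.52 and -2.43, while Id1 lies near 0.

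The genes whose levels followed those of a member most closely were sought over the 12 arrays, after each batch was centred, for the 6 kept members detected on every array of at least 1 treatment in both batches. Bmp7 was followed by Mical3, Vasn and Mpzl1 (Pearson r 0.992 for each), Gdf10 by Gucy1a3, Cthrc1 and Nmral1 (r 0.978, 0.977 and 0.974), and Grem1 by Phex, Ihh and Ptgis (r 0.993, 0.980 and 0.980). For Bmp4 they were Tsp50, Etnk2 and 9530077C05Rik (r 0.975, 0.965 and 0.963), for Gdf5 B930066N23Rik, Lrp5 and LOC100046232 (r 0.949, 0.931 and 0.926), and for Nog Fkbp9, Cdkn2c and H2-DMb2 (r 0.968, 0.954 and 0.953). These 12 points share arrays and 3 treatments, and the genes were picked as the highest of all kept probes, so the values are a description.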

How the data were processed

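Total RNA was hybridised to Illumina Sentrix Mouse bead arrays at a contract facility. The authors deposited, for 12 arrays, linear probe intensities that had been neither background-corrected nor normalized. They also deposited a detection score per probe, which rises with intensity and was read as 1 minus a detection p-value. The bead summary software is not given in the sources used here. Every value column was matched to a sample by its label (0 columns without a sample).

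Intensities were processed with neqc of limma 3.58.1 in R 4.3.3 (background from detection p-values, quantile normalization, offset 16, log2), as the study's methods name this function and a factor for batch and replicate. The filter was a detection p under 0.05 on 4 or more arrays (18200 probes kept and 28432 removed). lmFit and eBayes fitted treatment and a factor for batch and replicate, and 6 group means served for differences between batches. Adjusted p-values are limma's with Benjamini-Hochberg. Exact permutation tests were two-sided over 70 arrangements. The functions were tested on simulated data. The precision is limited by 4 arrays per treatment. Median raw intensities were 34.3 to 63.3.

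The members and gene lists were chosen with earlier results of these data known. Named were the members, list genes called with a log2 change of at least 1, the Id genes, the BMP receptors and the 3 genes most like a member. Marker lists covered chondrocyte, osteoblast, blood and marrow, macrophage and osteoclast, neutrophil, endothelium, synovium and fibroblast, muscle and adipocyte. Alternatives were no background correction, median scaling, normalization within batches, an offset of 50, other detection filters, other model terms, other probes, each batch alone and leaving out each array. Gene symbols are those of the array, and all 10 members were current RefSeq symbols. RefSeq promoters were used for sequences only.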

Additional observations from a re-analysis of the deposited data

Results flagged for a closer look

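For 5 results of the members the effect of a treatment differed between the batches by limma's test of that difference. Bmp2 (ILMN_2616890) differed by 1.48 for retinoic acid against untreated and by 0.94 for retinoic acid against IL-1α (batch 2 minus batch 1, adjusted p 0.00284 and 0.0247). It was not detected in batch 1, so these are no sizes of a change. The IL-1α effect on Bmp7 (ILMN_2589662) differed by -0.91, being 0.82 in batch 1 and -0.09 in batch 2 (adjusted p 0.0319). The dimmer Bmp7 probe (ILMN_1249526), not detected with IL-1α, differed by -0.96 for retinoic acid against IL-1α (adjusted p 0.00827). The IL-1α effect on Gdf10 (ILMN_1249941) differed by 0.86, being -2.92 in batch 1 and -2.06 in batch 2 (adjusted p 0.0490).

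Signal also appeared in probes that were not kept. Bmp6 (ILMN_2705217) reached 5.70 on an IL-1α array of batch 2, above the 5.09 of the untreated array that detected it, and the dimmer Gdf10 probe (ILMN_2503319) reached 5.04 on a retinoic acid array of batch 2. A rule on the gap of an end array over the range of its group flagged no array in 27 groups of 4 arrays. Each group holds 2 arrays from each batch, and offsets between the batches widen the range. The rule can therefore hardly flag a single array, and its silence says little about outliers.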

How the results depend on the processing

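No called difference of a member changed sign under the alternatives run. Of the differences not called, Bmp7 with IL-1α turned to -0.10 with its other probe and -0.09 in batch 2 alone, Nog with IL-1α to 0.07 without the first untreated array of batch 2 and 0.08 in batch 1 alone, Gdf5 between the treatments to -0.30 with its other probe, and Bmp2 between the treatments to -0.06 in batch 1 alone. For retinoic acid against untreated, 7 member genes were called. Detection on all 12 arrays left only Bmp7, Gdf5, Gdf10 and Nog to test, and all 4 were called. With neither batch nor replicate in the model the count was 3. For retinoic acid against IL-1α the member count of 5 became 3 with no filter and 2 with neither term. With detection on all 12 arrays it was 3 of the 4 genes left to test. The list counts became 9 for retinoic acid against untreated (from 19), 4 for IL-1α against untreated (from 16) and 8 for retinoic acid against IL-1α (from 21) with neither term, and 10 for IL-1α against untreated with median scaling. Leaving out each array in turn gave 6 to 7, 2 to 4 and 4 to 5 member genes, and 16 to 19, 12 to 17 and 18 to 21 list genes, for retinoic acid against untreated, IL-1α against untreated and retinoic acid against IL-1α.

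Member genes whose effect differed between batches were 1, 2 and 1 in the same order. For retinoic acid against untreated the count was 2 with no background correction, with normalization within batches and with an offset of 50, and 0 with detection on all 12 arrays. For IL-1α against untreated it was 1 with median scaling, 0 with no filter and 1 with detection on all 12 arrays. For retinoic acid against IL-1α it was 2 with median scaling, 0 with no filter and 0 with detection on all 12 arrays. Leaving out each array gave 1 to 2, 0 to 3 and 0 to 3. There the lone array of a group was assumed to vary like the others. With no filter, more probes are tested. Detection on all 12 arrays removes Bmp2, the member that differed for retinoic acid against untreated and against IL-1α, so it was not tested there. Of the other moves the cause was not tested.

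Deviations of same-numbered arrays correlated by 0.0027 to 0.062 in batch 1 and by -0.11 to 0.39 in batch 2. The replicate numbers thus showed no clear pairing of arrays in batch 1, and the values of batch 2 were mixed. With no replicate block the member counts were 7, 4 and 5, Bmp4 with IL-1α being added (adjusted p 0.0300), and the list counts 19, 17 and 20. With a replicate block in the test between batches, an alternative chosen after seeing the data, the counts were 1, 1 and 2.
Single member calls also changed. Without the filter, the adjusted p was 0.0637 for Gdf10 and 0.0907 for Bmp2 with retinoic acid against untreated, 0.0981 for Gdf5 with IL-1α, and 0.0578 for Grem1 and 0.0692 for Bmp4 between the treatments. The Grem1 difference between the treatments also missed the threshold with an offset of 50 (0.0580) and with normalization within batches (0.0524). Among list genes, median scaling ended calls for retinoic acid against untreated in Gdf15 (adjusted p 0.0558) and Hey1 (0.103), for IL-1α against untreated in Id3 (0.119), Bmp3 (0.0740) and Tob1 (0.0520), and between the treatments in Acvr1 (0.186). With no filter, Gdf15 with retinoic acid (0.121), Hey1 with retinoic acid (0.0886) and Tob1 with IL-1α (0.0874) were not called. Signal near background limits Bmp2, Bmp4 and Grem1 with treatment, and leaves Bmp6, Chrdl1 and Bambi unmeasured in most arrays.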

Other observations

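Marker lists of other cells in the explants gave the following values, with no test of their part in the results above. Among all genes with a kept probe, 18.6% rose and 18.1% fell with retinoic acid, and 15.1% rose and 15% fell with IL-1α. Of 5 kept macrophage and osteoclast markers, 4 rose with retinoic acid, and 2 rose and 1 fell with IL-1α. Their summed linear level was 3880 to 6179 per untreated array, 7355 to 8079 with IL-1α and 6518 to 9829 with retinoic acid. Of 5 kept neutrophil markers, 3 fell with retinoic acid and 0 changed with IL-1α, with sums of 8006 to 11770, 13030 to 14720 and 3643 to 12980. Both kept blood and marrow markers were not called with either treatment, and Ptprc and Cd3e were detected on 0 arrays. Of 4 kept endothelial markers, 2 fell with IL-1α and 0 changed with retinoic acid. Of 4 kept markers of synovium and fibroblasts, 3 fell with each treatment and 1 rose with retinoic acid. Both kept adipocyte markers fell with both treatments, from sums of 911.5 to 1401 untreated to 186.6 to 453.8 with IL-1α and 240.1 to 300.4 with retinoic acid. Of 2 kept muscle markers, 1 fell with retinoic acid and 2 with IL-1α.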
